A study of Mus musculus with 20 samples.

Results

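The genes described here are 9 genes of kidney glucose production, ammonia handling and glucose transport: Pck1, G6pc, Fbp1, Pcx, Glud1, Glul, Slc2a1, Slc2a2 and Slc5a1. They were taken by symbol from a joined table of 24762 genes, and all 9 were found and passed the filter on low counts. RNA was sequenced from kidneys of orchidectomised mice of strain C57BL/6J in 4 groups of 5 libraries. Wild type mice were given vehicle or testosterone for 4 days, and so were ARLmon/Y mice. All groups had lost their testes, so even the vehicle groups carry that operation. ARLmon is an allele of the androgen receptor with a mutation in the ligand-binding domain that disturbs dimerization of the receptor, and a male carries 1 copy of this X-linked gene. Age is not given in the sources used here. Nothing there states that the libraries of a group were separate animals, so p-values measure the spread between these libraries, which may be partly technical. Codes GC078602 to GC078606 stand for wild type vehicle, GC078607 to GC078611 for wild type testosterone, GC078612 to GC078616 for ARLmon testosterone and GC078617 to GC078621 for ARLmon vehicle.

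The proximal tubule of the kidney makes glucose from lactate, glutamine and glycerol, above all in fasting and acidosis. Pyruvate carboxylase (Pcx) turns pyruvate into oxaloacetate, phosphoenolpyruvate carboxykinase (Pck1) carries that on to phosphoenolpyruvate, fructose-bisphosphatase (Fbp1) removes a phosphate further along, and glucose-6-phosphatase (G6pc) releases free glucose. Breakdown of glutamine feeds the same route through glutamate dehydrogenase (Glud1) and yields ammonium, which carries acid into the urine, while glutamine synthetase (Glul) uses ammonia up. Slc2a2 (GLUT2) and Slc2a1 (GLUT1) move glucose across the basolateral membrane, and Slc5a1 (SGLT1) takes up the last of the filtered glucose, mainly in the straight part of the proximal tubule.

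Total counts ran from 8342000 to 38101526 reads per library. In wild type, testosterone libraries had between 8342000 and 15422018 reads. GC078606 had 8618311, and the other wild type vehicle libraries had between 18915960 and 38101526. Depth therefore went with treatment in wild type, apart from GC078606. ARLmon libraries had between 10236738 and 18609328 reads. The part of depth in the differences below was not tested. As a check of the labels, Odc1 (ornithine decarboxylase), a known androgen target in mouse kidney, averaged 206 ± 32.4 CPM (counts scaled for depth with TMM factors; mean ± SD, n = 5) in wild type vehicle and 1509.7 ± 119 in wild type testosterone libraries. It averaged 202 ± 24.2 and 188 ± 26.8 CPM in the ARLmon groups. Summed markers of the convoluted proximal tubule (8 genes) were abundant in every library, between 7729 and 13860 CPM. GC078604 and GC078618 were also left out together, a choice made after seeing the data. Without both, the calls of members were those reported here except for Pcx between genotypes under vehicle, at -0.38 with an adjusted p of 0.0544 in edgeR.

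Promoter sequence is shown for the 4 genes that passed a test and for Pck1, whose cAMP response element is a textbook example. Each line holds the 250 bases before a RefSeq start site on GRCm38.p6, written 5′ to 3′ on the gene's strand. Capitals mark exact matches, on either strand, to the half-sites AGAACA (steroid receptors), TGACG (cAMP response element), AGGTCA (nuclear receptors) or GTTAAT (homeodomain factors).
Pck1, plus strand, chr2:173152823-173153072: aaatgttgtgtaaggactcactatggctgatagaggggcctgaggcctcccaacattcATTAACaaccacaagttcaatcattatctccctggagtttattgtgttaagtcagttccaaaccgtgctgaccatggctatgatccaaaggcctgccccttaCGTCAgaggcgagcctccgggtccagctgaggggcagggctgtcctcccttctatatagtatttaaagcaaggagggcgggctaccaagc
Fbp1, minus strand, chr13:62888283-62888532: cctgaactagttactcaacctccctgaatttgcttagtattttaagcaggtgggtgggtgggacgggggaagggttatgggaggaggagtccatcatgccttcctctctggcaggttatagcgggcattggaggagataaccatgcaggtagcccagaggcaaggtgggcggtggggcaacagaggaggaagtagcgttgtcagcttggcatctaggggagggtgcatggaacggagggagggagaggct
Pcx, plus strand, chr19:4510222-4510471: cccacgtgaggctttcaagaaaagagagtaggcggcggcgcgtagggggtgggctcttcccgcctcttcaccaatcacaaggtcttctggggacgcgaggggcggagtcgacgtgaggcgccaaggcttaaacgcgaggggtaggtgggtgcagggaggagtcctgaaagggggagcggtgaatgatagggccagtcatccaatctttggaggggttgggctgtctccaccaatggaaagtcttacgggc
Glul, plus strand, chr1:153899679-153899928: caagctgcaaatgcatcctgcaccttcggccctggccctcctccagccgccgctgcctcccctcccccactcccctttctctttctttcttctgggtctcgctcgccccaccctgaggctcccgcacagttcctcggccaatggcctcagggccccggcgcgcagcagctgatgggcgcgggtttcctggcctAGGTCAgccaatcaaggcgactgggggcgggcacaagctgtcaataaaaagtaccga
Slc5a1, plus strand, chr5:33103969-33104218: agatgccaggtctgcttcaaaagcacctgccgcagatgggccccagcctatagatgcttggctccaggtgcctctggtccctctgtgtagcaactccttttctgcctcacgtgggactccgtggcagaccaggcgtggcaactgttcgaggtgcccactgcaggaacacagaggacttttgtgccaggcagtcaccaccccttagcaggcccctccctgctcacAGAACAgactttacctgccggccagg

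In Pck1 the letters CGTCA, the reverse complement of the cAMP half-site, began 90 bases before the start, and ATTAAC, the reverse complement of the homeodomain half-site, 192 bases before it. The Slc5a1 window held AGAACA 26 bases before the start, and the Glul window AGGTCA 57 bases before it. The Fbp1 window and the window at the first Pcx start held none of the 4 motifs. A second RefSeq start of Pcx had TGACCT 40 bases after it. G6pc had TGACCT at -54 and GTTAAT at -221, Slc2a2 had AGGTCA at -21, and the windows of Glud1 and Slc2a1 held no match. No letters were shared by 2 motifs. Among all 32851 windows of 300 bases, reaching to 50 bases after the start, AGAACA was in 19%, TGACG in 20.8%, AGGTCA in 16.3% and GTTAAT in 7.1%. These are matches of letters and no binding was measured.

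Levels per kilobase of exon put the 9 genes in an order that was much the same in all groups. In wild type vehicle kidneys Pck1 averaged 643 ± 257 CPM per kilobase and Fbp1 531 ± 72.6, with overlapping libraries. G6pc followed at 238 ± 77.3, then Pcx at 139.9 ± 20.7, Glul at 137 ± 21.2 and Glud1 at 115 ± 23.7, each overlapping the next. The carriers were lower, with Slc2a2 at 27.3 ± 4.49, clear of Slc5a1 at 17.4 ± 1.98 but not of Slc2a1 at 17.3 ± 3.87. With testosterone in wild type, Fbp1 (661 ± 45.5) ranked before Pck1 (565 ± 145), again with overlap, and Pcx (184 ± 7.62) lay above Glul (135 ± 25.2) without overlap. In ARLmon the order of that last pair was the reverse. With vehicle Glul stood at 168 ± 21.9 and Pcx at 107 ± 11.2 CPM per kilobase, without overlap, and with testosterone at 195 ± 53.2 and 105 ± 9.65.

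In wild type kidneys testosterone raised 2 of the 9 genes, Pcx and Fbp1, and lowered none (edgeR quasi-likelihood test, adjusted p below 0.05 over 15549 genes). Of all genes tested, 15.7% were called in this comparison, 9.36% as higher and 6.36% as lower. The median log2 difference was -0.11 over the members and -0.034 over all genes. In ARLmon kidneys testosterone changed 0 of the 9 genes, and 0% of all genes were called in edgeR. None of the 9 had an unadjusted p below 0.05 there, and neither DESeq2 nor limma-voom called any. Over all genes 813 had an unadjusted p below 0.05 in edgeR, 844 in DESeq2 and 808 in limma-voom, and no call was made by any of these tools. The median log2 difference in ARLmon was 0.011 over the members and 0.0058 over all genes.

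Between genotypes under vehicle, 1 member differed: Pcx was lower in ARLmon. Of all genes 4.37% were called there, 1.99% higher and 2.38% lower. Under testosterone 4 members differed, with Slc5a1 and Glul higher in ARLmon and Pcx and Fbp1 lower, against 31.1% of all genes, 15.6% higher and 15.5% lower. Set against wild type vehicle, ARLmon testosterone kidneys had lower Pcx and no other call, against 3.03% of all genes, 1.25% higher and 1.78% lower. The test of the difference between the testosterone effects of the genotypes called 0 of the 9 genes in edgeR, against 4.77% of all genes, 1.42% higher and 3.34% lower. In it Pcx and Fbp1 had an unadjusted p below 0.05, DESeq2 called 1 member, Pcx, and limma-voom called 0. The comparisons share libraries, so the calls are not independent of each other.

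**Figure D1:**
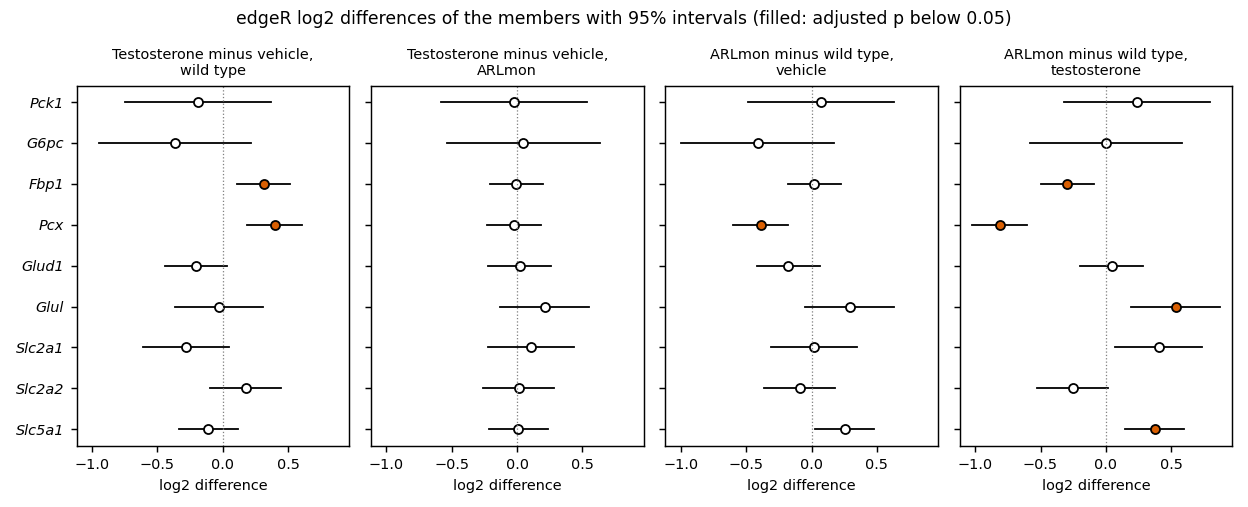
Log2 differences of the 9 genes in 4 comparisons (edgeR; lines are 95% intervals, filled points have an adjusted p below 0.05). Pcx and Fbp1 lie above 0 for testosterone in wild type, all 9 intervals span 0 in ARLmon, and the point farthest from 0 is Pcx between genotypes under testosterone, at -0.81.

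Pcx (chr19:4510472-4621752, plus strand, GRCm38, whose promoter letters are shown above) makes oxaloacetate from pyruvate inside mitochondria. In wild type it read 531, 671, 683, 635 and 805 CPM with vehicle, in library order. With testosterone it read 904, 873, 822, 869 and 915. Every testosterone library was above every vehicle library, a separation found for 12.6% of all genes in this comparison. The log2 difference between the means of 665 ± 98.3 and 877 ± 36.2 CPM (SD, n = 5) was 0.40 ± 0.10 (SE), with an adjusted p of 0.00852 in edgeR. In bulk kidney RNA, more or fewer cells of a type and more or less RNA per cell cannot be told apart.

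In ARLmon no testosterone difference was called for this gene. Vehicle libraries read 504, 509.6, 452, 480.2 and 594 CPM of Pcx and testosterone libraries 492, 510.2, 484, 444 and 569. The groups overlapped, as for all but 0.778% of all genes in this comparison, and the log2 difference was -0.024, with a 95% interval from -0.23 to 0.19. The direct test of the difference between the effects in the genotypes gave -0.42 ± 0.14 with an adjusted p of 0.102 in edgeR and an unadjusted p of 0.00729. DESeq2 gave an adjusted p of 0.0484. Without GC078606, the highest wild type vehicle library, edgeR gave -0.50 with an adjusted p of 0.0323.

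ARLmon kidneys had less Pcx than wild type kidneys under either treatment. Under testosterone the highest ARLmon library was below the lowest wild type library, and 22.5% of all genes had groups free of overlap here. The log2 difference was -0.81 ± 0.10 with an adjusted p of 2.77e-06 in edgeR. Under vehicle the groups overlapped in 1 library of wild type, GC078602, and 1 of ARLmon, GC078621, where 4.57% of all genes were free of overlap. The log2 difference there was -0.39 ± 0.10 with an adjusted p of 0.0287. That vehicle call was lost without any 1 of GC078603, GC078606, GC078617, GC078619 or GC078620 (adjusted p from 0.0577 to 0.0846), and with an adjusted p of 0.149 when only the 10 libraries of the pair were fitted. ARLmon testosterone kidneys were also below wild type vehicle kidneys, at a log2 difference of -0.41 ± 0.10 with an adjusted p of 0.0246, with overlap (3.9% of all genes had none). That call was lost without GC078606, GC078613, GC078614 or GC078615, and with totals alone (-0.32, adjusted p 0.0816).

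Fbp1 (chr13:62864753-62888282, minus strand) removes a phosphate from fructose 1,6-bisphosphate, against the direction of phosphofructokinase. In wild type it read 867, 1030.0, 1037, 827 and 762 CPM with vehicle and 1171, 1132, 1088, 1215 and 1014 with testosterone. The testosterone libraries were the higher group, and the ranges overlapped because GC078611, at 1014 CPM, lay below GC078603 and GC078604. The means were 904 ± 124 and 1124 ± 77.4 CPM, and on the log2 scale they differed by 0.31 ± 0.098 (adjusted p 0.0320 in edgeR). The call was lost, with an adjusted p of at most 0.0895, without any 1 of GC078602, GC078605, GC078606, GC078607, GC078608 or GC078610.

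ARLmon libraries read 892, 1067, 908, 883 and 843 CPM of Fbp1 with vehicle and 963, 847, 885, 867 and 1015 with testosterone. Both groups sat within or near the range of wild type vehicle kidneys. The log2 difference for testosterone was -0.0052, with a 95% interval from -0.21 to 0.20. Under testosterone ARLmon was below wild type, at a log2 difference of -0.30 ± 0.098 with an adjusted p of 0.0254, and under vehicle the genotypes differed by 0.023, with an interval from -0.18 to 0.23. The call under testosterone was lost without GC078607, GC078610, GC078613, GC078614 or GC078615 (adjusted p from 0.0502 to 0.0671). The effects of testosterone in the genotypes differed by -0.32 ± 0.14 with an adjusted p of 0.237.

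Pck1 (chr2:173153048-173159273, plus strand) is usually taken as a control point of gluconeogenesis and is switched quickly by fasting hormones. Wild type libraries read 1612, 3663, 1434, 2035 and 2282 CPM with vehicle and 1695, 1446, 1600.3, 2534 and 2411 with testosterone. ARLmon libraries read 2335, 3342, 2757, 2004 and 1174 with vehicle and 3377, 2475, 1773, 2042 and 1779 with testosterone. All groups overlapped, and the spread was wide: the highest library of a group was between 1.75 and 2.85 times its lowest. The log2 difference for testosterone was -0.19 ± 0.27 in wild type (95% interval from -0.74 to 0.37) and -0.021 ± 0.27 in ARLmon (from -0.58 to 0.54). Differences inside these intervals are compatible with the Pck1 values at this spread.

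G6pc (chr11:101367561-101377903, plus strand), the last step before glucose leaves the cell, spread as widely. Wild type libraries read 534, 826, 438, 698 and 373 CPM with vehicle and 504, 285, 456, 422 and 560.3 with testosterone. ARLmon libraries read 405, 420.1, 525, 609.5 and 196 with vehicle and 512, 389, 715, 286 and 329 with testosterone. Each group overlapped the others, with a coefficient of variation between 23.3% and 38.6% within groups. For testosterone the log2 difference was -0.37 ± 0.28 in wild type (adjusted p 0.419) and 0.049 ± 0.28 in ARLmon (adjusted p 0.965). Between genotypes under vehicle it was -0.41 ± 0.28 (adjusted p 0.479).

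**Figure D2:**
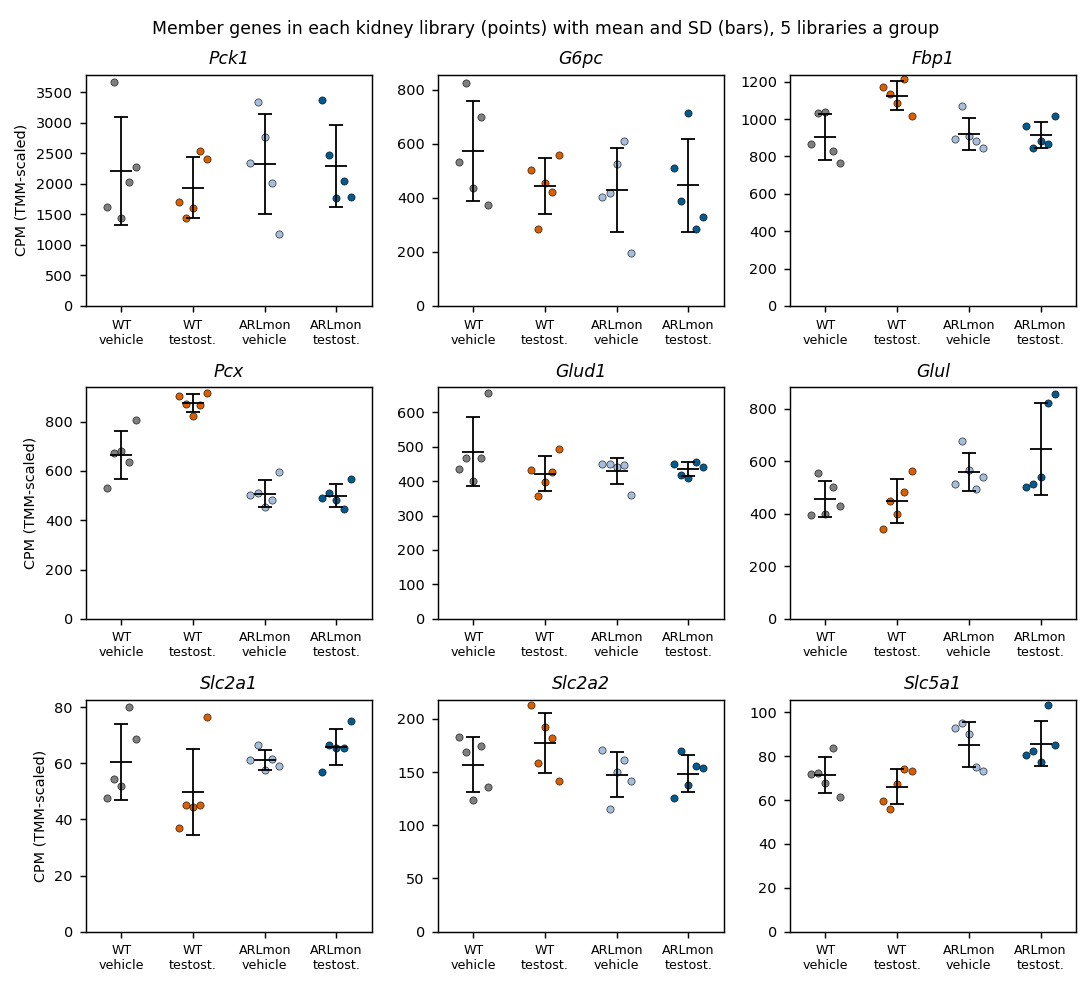
CPM of the 9 genes in each of the 20 libraries (points) by group, with the mean and SD (bars, n = 5); every vertical axis starts at 0. Pcx in wild type testosterone kidneys stands clear of the other 3 groups, and Pck1 and G6pc spread widely in every group.

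Glud1 (chr14:34310727-34345265, plus strand) takes the amino group off glutamate in mitochondria. Its means were 486 ± 99.7 CPM in wild type vehicle, 422 ± 50.7 in wild type testosterone, 429 ± 38.4 in ARLmon vehicle and 435 ± 21.3 in ARLmon testosterone libraries. The first mean was raised by GC078606 at 657 CPM, since the other 4 libraries read between 402 and 468. No comparison of Glud1 was called, and the log2 difference for testosterone was -0.20 ± 0.12 in wild type (adjusted p 0.252) and 0.019 ± 0.11 in ARLmon (adjusted p 0.968). The wild type value was -0.071 without GC078606.

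Glul (chr1:153899944-153909723, plus strand) joins ammonia to glutamate. Wild type libraries read 396, 556, 399.8, 503 and 429 CPM with vehicle and 341, 449.8, 401, 482 and 563 with testosterone, and the log2 difference was -0.029 with a 95% interval from -0.37 to 0.31. ARLmon libraries read 514, 679, 569, 493 and 542 with vehicle and 502, 514, 541, 824 and 857 with testosterone. In the last group GC078615 and GC078616 were far above the other 3. Under testosterone Glul was higher in ARLmon than in wild type, at 647 ± 177 against 448 ± 83.7 CPM with overlap, and the log2 difference was 0.53 ± 0.16 (adjusted p 0.0170 in edgeR). The call was lost without GC078607, GC078615 or GC078616, which gave 0.45, 0.43 and 0.41 with adjusted p of 0.0539, 0.0517 and 0.0625. The genotype difference under vehicle was 0.29 ± 0.16 (adjusted p 0.367) and the testosterone difference in ARLmon 0.21 ± 0.16 (adjusted p 0.774).

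Reads of Glul can be mixed with those of a near copy, the pseudogene Glns-ps1, which had between 2.01% and 3.35% as many reads as Glul. How reads that match both were assigned is not given in the sources used here. Genes on the opposite strand of a member had few reads. Lrfn4, inside Pcx, had between 23 and 230 reads per library, Teddm2, across the start of Glul, between 1 and 28, and 1700112D23Rik, across Slc2a2, between 0 and 9.

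Slc5a1 (chr5:33104219-33162870, plus strand) was the only carrier of the 9 genes called between genotypes in the reported fits, and only under testosterone. Outside the 9, 5 of 14 tested sugar carriers were also higher in ARLmon there, against 15.6% of all genes. Under testosterone wild type libraries read 59.7, 55.98, 67.4, 74.2 and 73.3 CPM of Slc5a1 and ARLmon libraries 80.7, 82.4, 77.1, 103 and 85.02. Every ARLmon library was above every wild type library, a separation found for 22.5% of all genes in this comparison. The log2 difference was 0.37 ± 0.11 with an adjusted p of 0.0126 in edgeR. Under vehicle wild type libraries read 71.7, 72.2, 67.6, 83.7 and 61.6 and ARLmon libraries 92.8, 94.96, 89.98, 75.01 and 73.2. Those groups overlapped, and the log2 difference of 0.25 ± 0.11 had an adjusted p of 0.219. Testosterone gave -0.11 ± 0.11 in wild type (adjusted p 0.542) and 0.0098 ± 0.11 in ARLmon (adjusted p 0.985). Markers of the straight proximal tubule, where Slc5a1 is mainly found, went the other way: 4 of 4 (Slc7a13, Atp11a, Slc22a30, Cyp7b1) were lower in ARLmon, under vehicle and under testosterone. Of all genes 2.38% were called lower in ARLmon under vehicle and 15.5% under testosterone. Some of these markers are known to need androgen, and whether the amount of straight tubule differed was not tested.

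Slc2a1 (chr4:119108711-119137983, plus strand), the basal glucose carrier, gave calls that depended on the libraries and the scaling. With testosterone wild type libraries read 37.1, 45.1, 44.5, 45.2 and 76.6 CPM, with GC078611 far above the other 4. With vehicle they read 47.5, 54.3, 51.9, 80.1 and 68.7. ARLmon libraries read 61.3, 66.6, 57.5, 61.4 and 59.1 with vehicle and 56.7, 66.5, 65.3, 65.5 and 74.9 with testosterone, a narrow range beside the wild type groups. With all libraries neither testosterone in wild type, at -0.28 ± 0.16 with an adjusted p of 0.256, nor genotype under testosterone, at 0.40 ± 0.16 with an adjusted p of 0.0605, was called. Without GC078611 these values were -0.49 and 0.61, with adjusted p of 0.0141 and 0.00148. Without GC078605, the highest wild type vehicle library, the genotype difference under testosterone had an adjusted p of 0.0438. With all libraries that difference was also called with totals alone, at 0.64 (adjusted p 0.00339), with limma-voom, at 0.44 (adjusted p 0.0414), and with limma on the deposited log2 values, at 0.68 (adjusted p 0.00473).

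Slc2a2 (chr3:28697903-28731359, plus strand), which lets glucose out of proximal tubule cells, was not called in any comparison. Its means were 157 ± 25.8 CPM in wild type vehicle, 177 ± 27.9 in wild type testosterone, 148 ± 21.4 in ARLmon vehicle and 149 ± 16.97 in ARLmon testosterone libraries. The log2 difference for testosterone was 0.17 ± 0.13 in wild type (adjusted p 0.408) and 0.011 ± 0.13 in ARLmon (adjusted p 0.987), and that between genotypes under testosterone -0.25 ± 0.13 (adjusted p 0.149).

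The scaling between libraries bears on differences of this size. When totals alone were used, the median log2 difference of all genes moved from -0.034 to -0.18 for testosterone in wild type and from 0.039 to 0.28 between genotypes under testosterone. Calls of higher and lower genes went from 1455 and 989 to 897 and 2687 in the first comparison, and from 2431 and 2411 to 5690 and 1213 in the second. With totals alone, testosterone in wild type gave Pcx 0.25 with an adjusted p of 0.0751 and Fbp1 0.16 with an adjusted p of 0.169, so both calls were lost. Measured from the median of all genes, Pcx stood at 0.43 with TMM and 0.43 with totals, and Fbp1 at 0.35 and 0.35. A change of scaling shifts all genes by nearly the same amount, so this agreement follows from the measure and tests nothing. Between genotypes under testosterone, Fbp1 was -0.051 with totals alone (adjusted p 0.648), which is -0.33 from that median. In the same comparison Pcx, at -0.85 from the median, and Slc5a1, at 0.34, were called under every setting run, and Glul under all but the 3 omissions named for it. Glud1, uncalled with TMM, was called with totals alone for testosterone in wild type (-0.36, adjusted p 0.0296) and between genotypes under testosterone (0.29, adjusted p 0.0455).

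**Figure D3:**
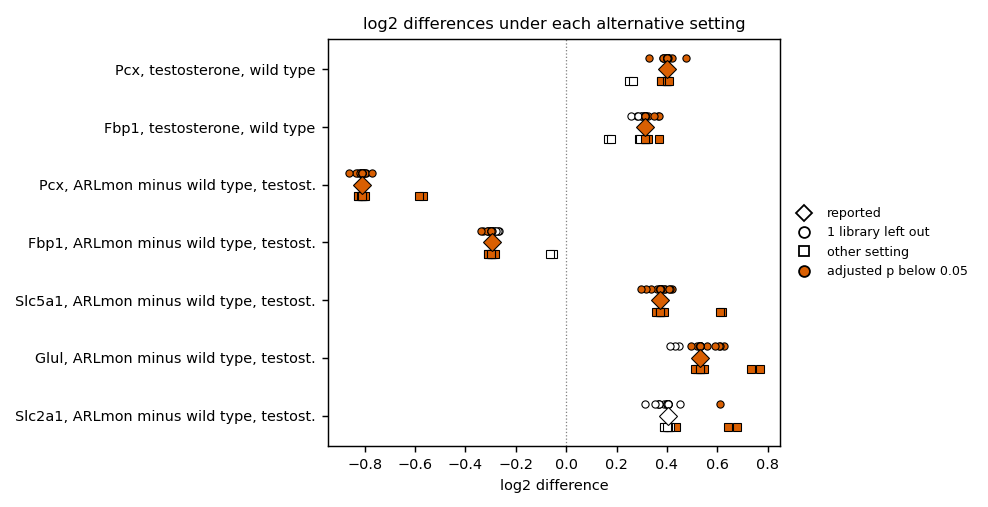
Log2 differences of 7 results under every alternative: diamonds are the reported fits, circles leave out 1 library, squares are other settings, and filled symbols have an adjusted p below 0.05. Pcx and Slc5a1 between genotypes under testosterone are filled throughout, and the open squares of Fbp1 nearest to 0 are totals alone and the deposited log2 values.

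Several markers of other kidney cells moved with the same groups. For testosterone in wild type, 9.36% of all genes were called higher and 6.36% lower. Between genotypes under testosterone 15.6% were higher in ARLmon and 15.5% lower. Straight proximal tubule markers, some of which are known to need androgen, were higher with testosterone in wild type for 4 of 4 genes, with sums from 509 to 1093 CPM with vehicle and from 4204 to 5437 with testosterone. In ARLmon they summed from 144 to 279 CPM with vehicle and from 216 to 648 with testosterone. Of the 8 convoluted tubule markers, testosterone in wild type raised Slc22a6 and lowered Slc5a2 and Gatm. Podocyte markers were lower for 4 of 4 genes, with sums from 368 to 559 CPM with vehicle and from 283 to 354 with testosterone. Fibroblast and mural markers had 1 of 4 lower and macrophage markers 1 of 3 higher. No marker of thick ascending limb, distal tubule, collecting duct or endothelium was called for testosterone in wild type. Under testosterone ARLmon kidneys had more of 4 of 4 podocyte, 4 of 4 distal tubule, 4 of 7 collecting duct, 3 of 4 endothelial and 2 of 4 thick ascending limb markers than wild type. Fibroblast and mural markers had 1 of 4 higher there. Macrophage markers had 1 of 3 higher and 1 lower, and convoluted tubule markers 1 of 8 higher and 1 lower. Distal tubule markers there summed from 1317 to 1894 CPM in wild type and from 1837 to 3176 in ARLmon. The part of these shifts in the differences of Pcx, Fbp1, Slc5a1, Glul and the genes below was not tested.

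Liver, the other organ that makes glucose, left little trace. Its 4 markers summed from 38.7 to 73.5 CPM in wild type vehicle, from 16.4 to 30.4 in wild type testosterone, from 19.1 to 34.1 in ARLmon vehicle and from 20.2 to 35.7 in ARLmon testosterone libraries. Of 4 markers of the adrenal cortex only 1 passed the filter on low counts. It read between 0.679 and 11.4 CPM, and the group with the highest library, ARLmon vehicle, had a median of 1.41 CPM. Cyp11b1 was at 0 reads in 3 of the 4 groups.

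The other genes of these routes were counted in 7 lists of 113 genes, 107 of them tested. None of the 107 was called for testosterone in ARLmon, where 0% of all genes were. The counts for testosterone in wild type stand against the 9.36% of all genes that were called higher there and the 6.36% called lower. Among 19 gluconeogenesis partners, testosterone in wild type raised 2 and lowered 1, close to those shares, with a median log2 difference of 0.013. Mpc1, part of the carrier that brings pyruvate to Pcx, rose from 54.9 ± 8.96 to 73.9 ± 5.89 CPM, by 0.43 ± 0.12 (adjusted p 0.0151 in edgeR). Slc37a4, the translocase that hands glucose-6-phosphate to G6pc, rose from 263 ± 52.2 to 356 ± 17.54 CPM, by 0.44 ± 0.13 (adjusted p 0.0211). Only 1 of this list was higher without GC078602, GC078605, GC078607 or GC078610, and with totals alone the higher and lower counts were 0 and 4.

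Fbp2, the muscle form of fructose-bisphosphatase, lies next to Fbp1 on the same strand (chr13:62836877-62858422) and went the other way. In wild type it read 27.1, 29.4, 39.00, 34.5 and 43.3 CPM with vehicle and 11.6, 12.1, 12.5, 10.1 and 11.6 with testosterone. The groups were far apart, where 12.6% of all genes were free of overlap. The log2 difference was -1.58 ± 0.15 (adjusted p 1.61e-07 in edgeR). In ARLmon it averaged 35.9 ± 8.37 and 30.7 ± 3.04 CPM, a difference of -0.22 ± 0.14 with no call, and the effects in the genotypes differed by 1.36 ± 0.21 (adjusted p 0.000240). Pck2, the mitochondrial form of Pck1, averaged 25.3 ± 2.95 and 21.8 ± 2.48 CPM in wild type, with no call (-0.21 ± 0.12, adjusted p 0.235).

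For the entry of lactate, glycerol and fructose, 3 of 10 tested genes rose with testosterone in wild type and none fell, with a median of 0.26. Slc5a8, a sodium-coupled lactate carrier of the apical membrane, read 148, 158, 97.4, 173 and 79.5 CPM with vehicle and 419, 417, 379, 529 and 416 with testosterone. The lowest testosterone library was well above the highest vehicle library, where 12.6% of all genes were free of overlap. The log2 difference was 1.72 ± 0.20 (adjusted p 2.92e-06 in edgeR). In ARLmon Slc5a8 averaged 72.8 ± 15.6 and 96.3 ± 23.3 CPM, and the effects differed by -1.31 ± 0.28 (adjusted p 0.00679). Glycerol kinase (Gyk) rose by 1.05 ± 0.28 (adjusted p 0.0128) and Dak, which phosphorylates dihydroxyacetone, by 0.37 ± 0.081 (adjusted p 0.00270). Without GC078604 the count was 5, and with totals alone the higher and lower counts were 2 and 0.

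Glycolysis and pyruvate control had 6 of 17 tested genes lower with testosterone in wild type and none higher, with a median of -0.23. Of all genes 6.36% were lower and 9.36% higher. Hexokinase Hk1 fell by 0.43 on the log2 scale, pyruvate kinase Pkm by 0.42, phosphofructokinase Pfkm by 0.30 and the liver and kidney pyruvate kinase Pklr by 0.26. Their adjusted p were 0.0296, 0.0345, 0.0255 and 0.0269 in edgeR. The count was between 0 and 3 without any 1 of GC078604 to GC078610, and 0 and 7 were higher and lower with totals alone.

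Among 20 tested partners of glutamine and ammonia handling, testosterone in wild type raised 4 and lowered 2, with a median of 0.11. Slc25a22, a mitochondrial glutamate carrier, rose by 1.69 ± 0.35 (adjusted p 0.00155 in edgeR). It read 51.2, 38.4, 52.8, 62.6 and 223 CPM in the testosterone libraries, and without the highest of these, GC078611, the difference was 0.95 (adjusted p 0.000869).

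The 2 lower genes of that list were Slc38a3 and Oat. Slc38a3, the basolateral glutamine carrier, fell from 70.02 ± 17.49 to 30.6 ± 4.55 CPM, a log2 difference of -1.20 ± 0.22 (adjusted p 0.000682 in edgeR). Oat (ornithine aminotransferase), which links ornithine to glutamate, read 266, 268, 211, 262 and 247 CPM with vehicle and 147, 131, 144, 143 and 166 with testosterone in wild type. In ARLmon it read 517, 432, 446, 485 and 399.6 with vehicle and 417, 502, 497, 546 and 513 with testosterone, above all wild type libraries. Between genotypes 4.57% of all genes were free of overlap under vehicle and 22.5% under testosterone. The log2 difference was -0.78 ± 0.096 for testosterone in wild type (adjusted p 4.42e-06) and 0.12 ± 0.095 in ARLmon with no call. Between genotypes it was 0.86 ± 0.095 under vehicle and 1.76 ± 0.098 under testosterone (adjusted p 4.05e-06 and 1.24e-11). Without GC078602 the list had 4 lower genes, and with totals alone the higher and lower counts were 2 and 5.

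Of 14 tested sugar carriers outside the members, 4 were lower with testosterone in wild type and none higher, with a median of -0.24. Pdzk1ip1, a small partner protein of SGLT2, fell from 802 ± 239 to 459.7 ± 52.6 CPM, by 0.80 on the log2 scale (adjusted p 0.00344 in edgeR). Slc5a11, an inositol carrier of the SGLT family, fell by 0.48 and Slc2a4 (GLUT4) by 0.41 (adjusted p 0.0223 and 0.0230). Slc5a2 (SGLT2), which takes up most of the filtered glucose ahead of Slc5a1, averaged 613 ± 93.9 CPM with vehicle and 481 ± 36.9 with testosterone, a difference of -0.35 ± 0.12 at an adjusted p of 0.0457. The Slc5a2 call was lost without any 1 of GC078602 to GC078605, GC078607 to GC078611, GC078613, GC078614, GC078617 or GC078620, and was kept in only 6 of 10 other settings. The list had 1 or 2 lower genes without GC078604, GC078610 or GC078611. With totals alone the higher and lower counts were 0 and 5.

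Of 21 regulators of gluconeogenesis, testosterone in wild type raised 2 and lowered none, with a median of 0.014, and 2 of 21 is close to the 9.36% of all genes that rose. The transcription factor Hnf4a rose from 747 ± 49.00 to 927 ± 73.96 CPM, by 0.31 ± 0.088 (adjusted p 0.0185 in edgeR). That call was lost in 4 of 10 other settings, among them totals alone (0.16, adjusted p 0.171). A regulator was called lower without GC078606, GC078610, GC078611, GC078615 or GC078621. Of 6 glucocorticoid-responsive genes 2 rose, with a median of 0.26. Hsd11b1, which regenerates active glucocorticoid inside cells, rose from 63.9 ± 9.90 to 459 ± 99.9 CPM, and Fkbp5, which androgen also induces, from 67.05 ± 39.1 to 178 ± 50.8. Without GC078604 or GC078611 1 gene of that list was called lower.

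**Figure D4:**
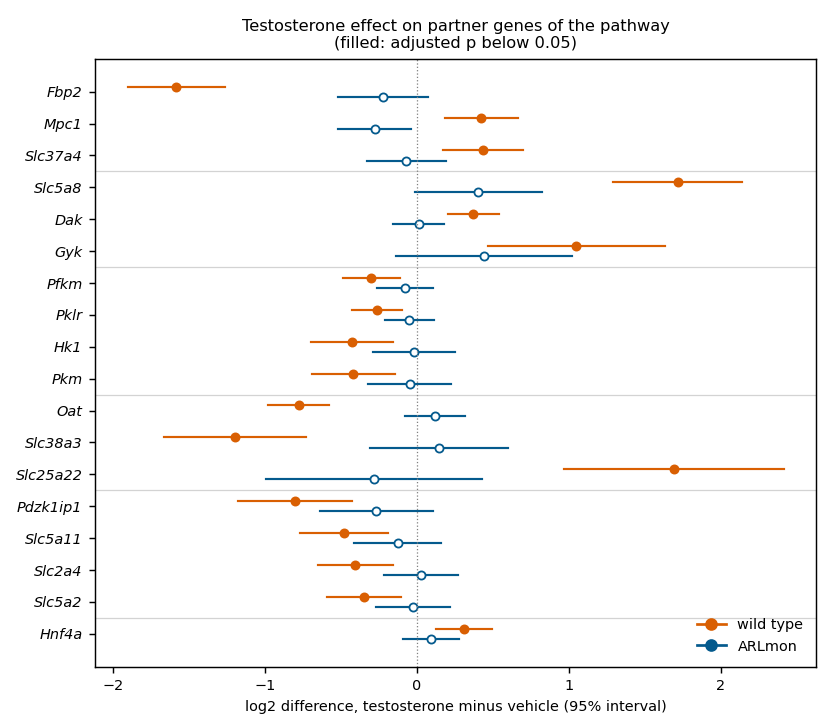
Log2 difference of testosterone minus vehicle (horizontal axis, edgeR, lines are 95% intervals) for 18 partner genes in wild type (orange) and ARLmon (blue), with grey lines between the gene lists and filled points for an adjusted p below 0.05. All 18 wild type points are filled, since these genes were named by that call or always, and none of the ARLmon points is filled.

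Between genotypes under testosterone 31.1% of all genes were called, 15.6% higher in ARLmon and 15.5% lower, and the counts of the lists stand against those shares. Among 19 gluconeogenesis partners 2 were higher and 3 lower in ARLmon, near the shares of all genes: Fbp2 at 1.41 ± 0.15 and Pck2 at 0.33 ± 0.12 on the log2 scale, and Slc37a4 at -0.72 ± 0.13, Mpc1 at -0.50 ± 0.12 and Tpi1 (triosephosphate isomerase) at -0.36 ± 0.12. The Pck2 call (adjusted p 0.0372 in edgeR) was lost without GC078603, GC078609 to GC078613 or GC078616, and that of Tpi1 (adjusted p 0.0218) without GC078613 or GC078615. The calls of Pck2, Tpi1 and Mpc1 were each kept in only 8 of 10 other settings. Over those settings the log2 difference was as small as -0.12 for Tpi1 and -0.21 for Mpc1. Of the entry genes 5 of 10 were lower and none higher, among them Slc5a8 at -2.17 ± 0.21 and lactate dehydrogenase Ldha at -0.58 ± 0.096. Of the genes of glycolysis and pyruvate control 8 of 17 were higher and none lower, with a median of 0.48. Among them were Pkm at 0.64 ± 0.13 and Pdk1, which restrains the oxidation of pyruvate, at 0.53 ± 0.13. Aldoc, an aldolase, was higher by 0.74 ± 0.16. Without GC078612 1 glycolysis gene was lower. With totals alone the higher and lower counts were 6 and 1 for gluconeogenesis, 1 and 2 for entry and 13 and 0 for glycolysis.

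Glutamine and ammonia partners had 5 of 20 higher in ARLmon under testosterone and 6 lower, with Car4 (membrane carbonic anhydrase) at -0.90 ± 0.16, Slc1a1 (glutamate carrier) at -0.64 ± 0.12 and Gpt (alanine aminotransferase) at -1.27 ± 0.24. The count of higher genes was between 1 and 3 without GC078608, GC078610 or GC078616. Other carriers had 5 of 14 higher and none lower, against 15.6% and 15.5% of all genes. The higher count was 2 or 3 without GC078603, GC078610, GC078611, GC078613, GC078614, GC078616, GC078617 or GC078621. Slc5a11 at 0.61 and Slc2a4 at 0.60 (adjusted p 0.00226 and 0.000614 in edgeR) were called under every setting run. Slc2a6, a sugar carrier, was higher by 1.25 ± 0.46 (adjusted p 0.0444 in edgeR), a call lost without any 1 of GC078603, GC078609 to GC078613, GC078616, GC078617, GC078620 or GC078621, without the filter on low counts or with limma-voom. Regulators had 3 of 21 higher and 5 lower, 8 of 21 beside 31.1% of all genes, and 2 or 3 lower without GC078608, GC078609, GC078611, GC078614 or GC078615. Among the higher ones were Txnip, which restrains glucose uptake, at 0.66 ± 0.16 and the insulin receptor substrate Irs1 at 0.52 ± 0.16. Hnf4a was among the lower ones, at -0.47 (adjusted p 0.000321 in edgeR), and was called under every setting run. Of the 6 glucocorticoid-responsive genes 3 were lower and none higher. Hsd11b1 at -3.33 and Fkbp5 at -2.60 (adjusted p 6.91e-12 and 6.58e-07 in edgeR) were called under every setting run. The other was the transcription factor Zbtb16 at -1.71 ± 0.47 (adjusted p 0.00920), a call lost without GC078611 or with limma on the deposited log2 values. With totals alone the higher and lower counts were 9 and 4 for glutamine and ammonia, 10 and 0 for carriers and 7 and 2 for regulators.

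Under vehicle few genes of the lists differed between genotypes, as did 4.37% of all genes. Besides Oat, ARLmon had more Pdk1, at 74.7 ± 10.6 against 51.97 ± 8.64 CPM and a log2 difference of 0.52 ± 0.13 (adjusted p 0.0175 in edgeR). It had less Slc5a8 at -0.85 ± 0.20 (adjusted p 0.0149), Ldha at -0.34 ± 0.096 (adjusted p 0.0481), Slc1a1 at -0.42 ± 0.12 (adjusted p 0.0495) and Fkbp5 at -1.18 ± 0.28 (adjusted p 0.0161). The Pdk1 call was lost without GC078605 or GC078617, and those of Slc5a8 and Fkbp5 without GC078605. Of 10 other settings, Pdk1 kept its call in 9, and Slc5a8 and Fkbp5 in 8 each. The calls of Ldha and Slc1a1 were lost in most of the fits that left out 1 library.

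The genes whose log2 CPM ran most closely with each called member over the 20 libraries were picked as a description. The libraries share group means and depth, and no test was made. For Pcx these were Ifrd2 (Pearson r 0.966), Nt5dc2 (0.964) and Degs2 (0.949), and for Fbp1 Apeh (0.954), Calml4 (0.942) and Eci3 (0.914). For Slc5a1 they were Aplp2 (0.903), Lppr4 (0.885) and Epcam (0.860), and for Glul Prkcq (0.863), Wdr36 (0.840) and Arf6 (0.817).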

How the data were processed

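The submitters' processing notes name FastQC 0.11.7, HISAT2, SAMtools 1.5, HTSeq, DESeq2 and mm10, and per the labels' protocols a stranded mRNA kit was used. The strand setting and annotation of the counting are not given in the sources used here. The authors deposited raw counts per gene in 4 tables, each for a pair of groups, and a table of log2 expression values for 20550 genes. The count tables kept genes with at least 2 reads over the 10 libraries of a pair. They were joined on gene symbol with 0 differences between shared columns, and 12045 values in 1713 genes absent from a pair's table were set to 0.

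Counts were tested with edgeR 4.0.16 (filterByExpr, TMM, quasi-likelihood, 4 group means, 16 residual degrees of freedom, R 4.3.3), adjusting by Benjamini-Hochberg over 15549 genes with a threshold of 0.05. SE is the log2 difference divided by the square root of F, and intervals are 95%. The fits were tested on simulated data whose changes were all larger than those called for Pcx and Fbp1 with testosterone in wild type. Differences of that size were not covered by the simulation. Precision rests on 5 libraries a group. Alternatives used DESeq2 1.42.0, limma 3.58.1 (voom, and limma on the log2 values), other scalings and filters, only the pair's libraries, and each library left out. CPM per kilobase used merged exons of GENCODE on GRCm38, and promoters are RefSeq, GRCm38.p6. The named genes are the 9 members, Slc5a2, Pck2 and another partner, up to 4 called genes per list with the smallest p (2 outside the testosterone contrast in wild type and the genotype contrast under testosterone), and the 3 genes of at least 5 CPM nearest each called member by correlation. Of the genes so named, 2 are not reported here. The members and lists were chosen with earlier results of these data known.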

Additional observations from a re-analysis of the deposited data

Results flagged for a closer look

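In 3 of 36 sets of 5 libraries (9 genes in 4 groups), the gap between 1 library and the next was more than 0.71 of the whole range, which chance gives in about 1 of 20 sets. Glud1 stood at 657 CPM in GC078606, above the other 4 wild type vehicle libraries. Glud1 stood at 361 CPM in GC078621, below the other 4 ARLmon vehicle libraries. Slc2a1 stood at 76.6 CPM in GC078611, above the other 4 wild type testosterone libraries.

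For 8 of the partner genes reported here the effect of testosterone differed between the genotypes by the test of that difference (edgeR, adjusted p below 0.05). Values are on the log2 scale, as ARLmon minus wild type. Of all genes 4.77% were called in that test, 1.42% higher and 3.34% lower. These 8 genes were named for a call with testosterone in wild type, so their count is not a share of a list. Fbp2 (1.36), Oat (0.90) and Slc38a3 (1.34) fell in wild type and were not called in ARLmon. Slc5a8 (-1.31), Mpc1 (-0.70), Hsd11b1 (-2.92), Slc25a22 (-1.98) and Fkbp5 (-1.42) rose in wild type and were not called in ARLmon. Slc25a22 was -1.23 without GC078611. Of 9 other settings, Mpc1 and Slc25a22 kept their calls in 8 each and Fkbp5 in 6, and Mpc1 was as small as -0.39. The Fkbp5 call, with an adjusted p of 0.0397, was lost without any 1 of GC078602, GC078603, GC078604, GC078610 to GC078614 or GC078617 to GC078621.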

How the results depend on the processing

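No paired analysis was possible because the columns carry a library code and a group but no replicate number. The number of members called for testosterone in wild type, 2 as reported, was 1 with library size alone, without the filter on low counts or with only the pair's libraries, 0 with limma on the deposited log2 values, and 1 to 3 with 1 library left out (1 without GC078602, GC078605, GC078606, GC078607, GC078608 or GC078610). Under vehicle the genotypes differed in 1 member as reported, in 0 with library size alone, only the pair's libraries, the log2 values or without GC078604 and GC078618 (chosen after seeing the data), and in 0 to 1 with 1 library left out. Under testosterone they differed in 4, in 3 to 5 over the other settings, and in 2 to 5 with 1 library left out (2 without GC078607 or GC078615). Over those settings Fbp1 was lost with library size alone, without the filter and with the log2 values, Slc2a1 was called with library size alone, voom and the log2 values, and Glud1 with library size alone. ARLmon testosterone against wild type vehicle had 1, then 0 with only the pair's libraries or the log2 values, and 0 to 1 with 1 library left out. With library size alone it was also 1, but the gene called was Glul (0.59, adjusted p 0.0366) and not Pcx (-0.32, adjusted p 0.0816). The difference between the effects had 0, then 1 with DESeq2, and 0 to 1 with 1 library left out (1 without GC078606).

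The log2 differences that changed sign were all uncalled. For testosterone in ARLmon, Pck1 became 0.022 (library size), 0.014 (voom), 0.048 (log2 values) and 0.15 (without the 2 libraries), and Fbp1 0.021 (library size), 0.029 (log2 values) and 0.054 (without the 2). Pcx became 0.015 with the log2 values and Slc2a2 -0.066 without the 2. Between genotypes under vehicle, Pck1 became -0.21 and Slc2a1 -0.068 without the 2, Slc2a1 -0.0033 without the filter and Slc2a2 0.023 with the log2 values. Under testosterone, G6pc became -0.014 with RLE factors, -0.014 with DESeq2 and -0.036 with voom, and Slc2a2 0.057 with the log2 values. For ARLmon testosterone against wild type vehicle, Pck1 became -0.068 without the 2, and Slc2a2 0.010 (library size) and 0.088 (log2 values). In the difference between effects Slc2a2 became 0.015 (library size) and 0.035 (log2 values).

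With 1 library left out, sign changes gave these ranges. For testosterone in wild type they were Pck1 -0.31 to 0.075, Glul -0.12 to 0.055. For testosterone in ARLmon they were Pck1 -0.20 to 0.15, G6pc -0.19 to 0.21, Fbp1 -0.045 to 0.054, Pcx -0.075 to 0.038, Glud1 -0.038 to 0.041, Slc2a2 -0.067 to 0.068, Slc5a1 -0.066 to 0.052. For genotype under vehicle they were Pck1 -0.093 to 0.32, Fbp1 -0.037 to 0.076, Slc2a1 -0.060 to 0.14, and under testosterone G6pc -0.23 to 0.13, Glud1 -0.011 to 0.11. For ARLmon testosterone against wild type vehicle they were Pck1 -0.13 to 0.30, Fbp1 -0.039 to 0.071, and for the difference between effects Pck1 -0.097 to 0.33. The cause of these changes was not tested.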

Other observations

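Members that passed no test had near companions too, chosen here after their values were seen and given as a description over the 20 libraries with no test. Pck1 ran most closely with Slc25a25 (Pearson r 0.901), a mitochondrial carrier of ATP and magnesium, and next with Tsc22d1 (0.794) and Errfi1 (0.754). G6pc had no gene above Cmip (0.750). Glud1 ran with Acot1 (0.841), Fga (0.839) and Psat1 (0.827), Slc2a1 with Rassf6 (0.897), and Slc2a2 with Snx30 (0.889).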
